A study of Mus musculus with 15 samples.

Results

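The proteasome genes described here are the 44 genes whose symbol in the deposited mouse array table starts with Psm, a letter from a to g and a digit. They are 44 of the 21335 genes with a symbol, measured by 69 of the 34908 probes with one. By role they are 15 genes of the 20S core, 3 subunits of the immunoproteasome, 20 genes of the 19S regulator and its chaperones, 4 activators, 1 inhibitor, and Psmc3ip, a meiotic recombination factor that shares the prefix and is not a subunit. RNA levels were measured on Agilent whole-genome arrays in liver and liver tumors of FVB/N mice, a laboratory strain. All mice carried LAP-tTA, a doxycycline-repressed activator driven by a liver promoter, and were fed doxycycline chow at 200 mg/kg until over 8 weeks of age. The 3 control livers carried LAP-tTA alone, with no time off doxycycline given. In the remaining groups the mice had, besides LAP-tTA, a transgene for MYC under its control, which comes on when doxycycline is withdrawn. Pre-tumor livers (n = 4) were taken 4 to 5 weeks after withdrawal and tumor nodules (n = 4) 8 to 9 weeks after it. Regression samples (n = 4) were tumors whose hosts spent 8 to 9 weeks without the drug and then 72 hours on it again. Whether the arrays of a group come from separate animals is not stated, so p-values measure the spread between these arrays, which may be technical in part.

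The proteasome is the main protease for proteins marked with ubiquitin. Its 20S core is a barrel of alpha rings, which gate the entry, and beta rings, which hold the cutting sites, and the 19S regulator recognises, unfolds and feeds in the substrate. In cells exposed to interferon, and in many leukocytes, the cutting subunits Psmb6, Psmb7 and Psmb5 are replaced by Psmb9, Psmb10 and Psmb8, which gives the immunoproteasome and favours peptides that fit MHC class I. MYC is a transcription factor that drives growth and protein synthesis, and liver tumors of this kind depend on it.

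All levels below are log2 signals relative to the 75th percentile of the same array, so they compare arrays within a gene and not genes with each other. The mouse Myc probe read 1.62, 2.18 and 1.95 in the controls, 2.32, 1.66, 0.59 and 1.37 in pre-tumor livers, 0.58, 0.44, 1.22 and 1.01 in tumors and 0.50, 2.54, 1.32 and 1.56 in regression. These values were not higher in the tumor arrays, so this probe, made for the mouse gene, does not show the transgene and does not check the labels. Of 6 cell division genes, 6 rose in tumor against control (9.41% of all genes did) and 6 fell in regression against tumor (8.49%). Of 10 hepatocyte markers, 9 fell in tumor against control (7.01% of all genes), although all 10 stayed well above background on every array. The arrays differed in quality, with 46.4% to 90.8% of spots well above background. Control 1, pre-tumor 1, pre-tumor 4 and tumor 4 stood apart by a high raw signal of the E1A control spots. Relative to the 75th percentile of the array, pre-tumor 1 no longer stood apart (-1.88, beside -1.87 in tumor 3). Arrays were spread over 4 slides, of which 3 held 1 array of each group and 1 held no control. In whole tissue, fewer cells of a type and less RNA per cell cannot be told apart.

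The promoters of 4 genes on which the results turn are printed first: Psmb8 and Psmb9, the immunoproteasome pair, and Psmb5 and Psmb3, members of the ordinary core. Each is the 250 bases before the start in RefSeq, build GRCm38.p6, written 5′ to 3′ on the gene's strand. They lie at chr17:34197945-34198194 (Psmb8, plus strand), chr17:34187331-34187580 (Psmb9, minus strand), chr14:54617996-54618245 (Psmb5, minus strand) and chr11:97703184-97703433 (Psmb3, plus strand). Capitals mark matches to any of 5 motifs searched on both strands.
Psmb8: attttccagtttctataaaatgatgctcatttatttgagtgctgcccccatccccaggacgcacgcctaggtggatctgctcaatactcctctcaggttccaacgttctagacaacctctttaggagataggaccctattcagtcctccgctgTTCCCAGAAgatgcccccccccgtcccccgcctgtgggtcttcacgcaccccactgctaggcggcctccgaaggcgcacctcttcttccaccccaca
Psmb9: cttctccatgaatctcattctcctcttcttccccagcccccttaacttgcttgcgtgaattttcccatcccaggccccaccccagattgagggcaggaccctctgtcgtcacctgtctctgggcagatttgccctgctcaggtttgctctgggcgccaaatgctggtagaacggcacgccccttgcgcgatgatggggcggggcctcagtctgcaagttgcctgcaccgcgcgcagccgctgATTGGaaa
Psmb5: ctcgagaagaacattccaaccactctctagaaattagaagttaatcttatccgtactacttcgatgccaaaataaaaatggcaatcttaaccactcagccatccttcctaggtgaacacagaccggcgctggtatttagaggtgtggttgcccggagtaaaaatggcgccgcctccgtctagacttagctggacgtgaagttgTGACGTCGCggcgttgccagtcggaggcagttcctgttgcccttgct
Psmb3: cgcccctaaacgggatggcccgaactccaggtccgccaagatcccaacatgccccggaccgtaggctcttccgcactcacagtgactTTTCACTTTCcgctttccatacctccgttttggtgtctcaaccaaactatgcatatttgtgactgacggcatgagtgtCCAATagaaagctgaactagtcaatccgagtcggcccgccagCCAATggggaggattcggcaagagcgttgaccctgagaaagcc
The Psmb8 match is to the gamma-activated sequence TTCNNNGAA, a site named for its response to interferon gamma. The capitals in Psmb9 are a CCAAT box on the other strand. Those in Psmb5 are an antioxidant response element, TGACNNNGC. Psmb3 holds 2 CCAAT boxes and, on the other strand, the interferon-stimulated response element, searched as GAAA, any 2 bases and GAAA.

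RefSeq promoters were matched for 37 of the 44 members and compared with 27025 genes. No entry was matched for Psma8, Psmb1, Psmb2, Psmb7, Psmc3, Psmd3 and Psmd7. CCAAT was present in 37.8% of the members' promoters and 37.5% of all genes' promoters. TGACNNNGC was present in 13.5% and 11.5%, the E-box CACGTG, a sequence that MYC binds, in 10.8% and 6.9%, the interferon-stimulated response element in 8.1% and 3.5%, and TTCNNNGAA in 2.7% and 8.1%. CCAAT was held by 6 of the 11 core genes with a promoter (54.5%) and by 5 of the 17 genes of the 19S regulator and its chaperones (29.4%). These shares describe letters in a short window and were not tested. Psmb9, Tap1, Psmb8 and Tap2 are neighbours in this order on chromosome 17, and Psme1 and Psme2 are separated by 1 gene on chromosome 14.

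**Figure D1:**
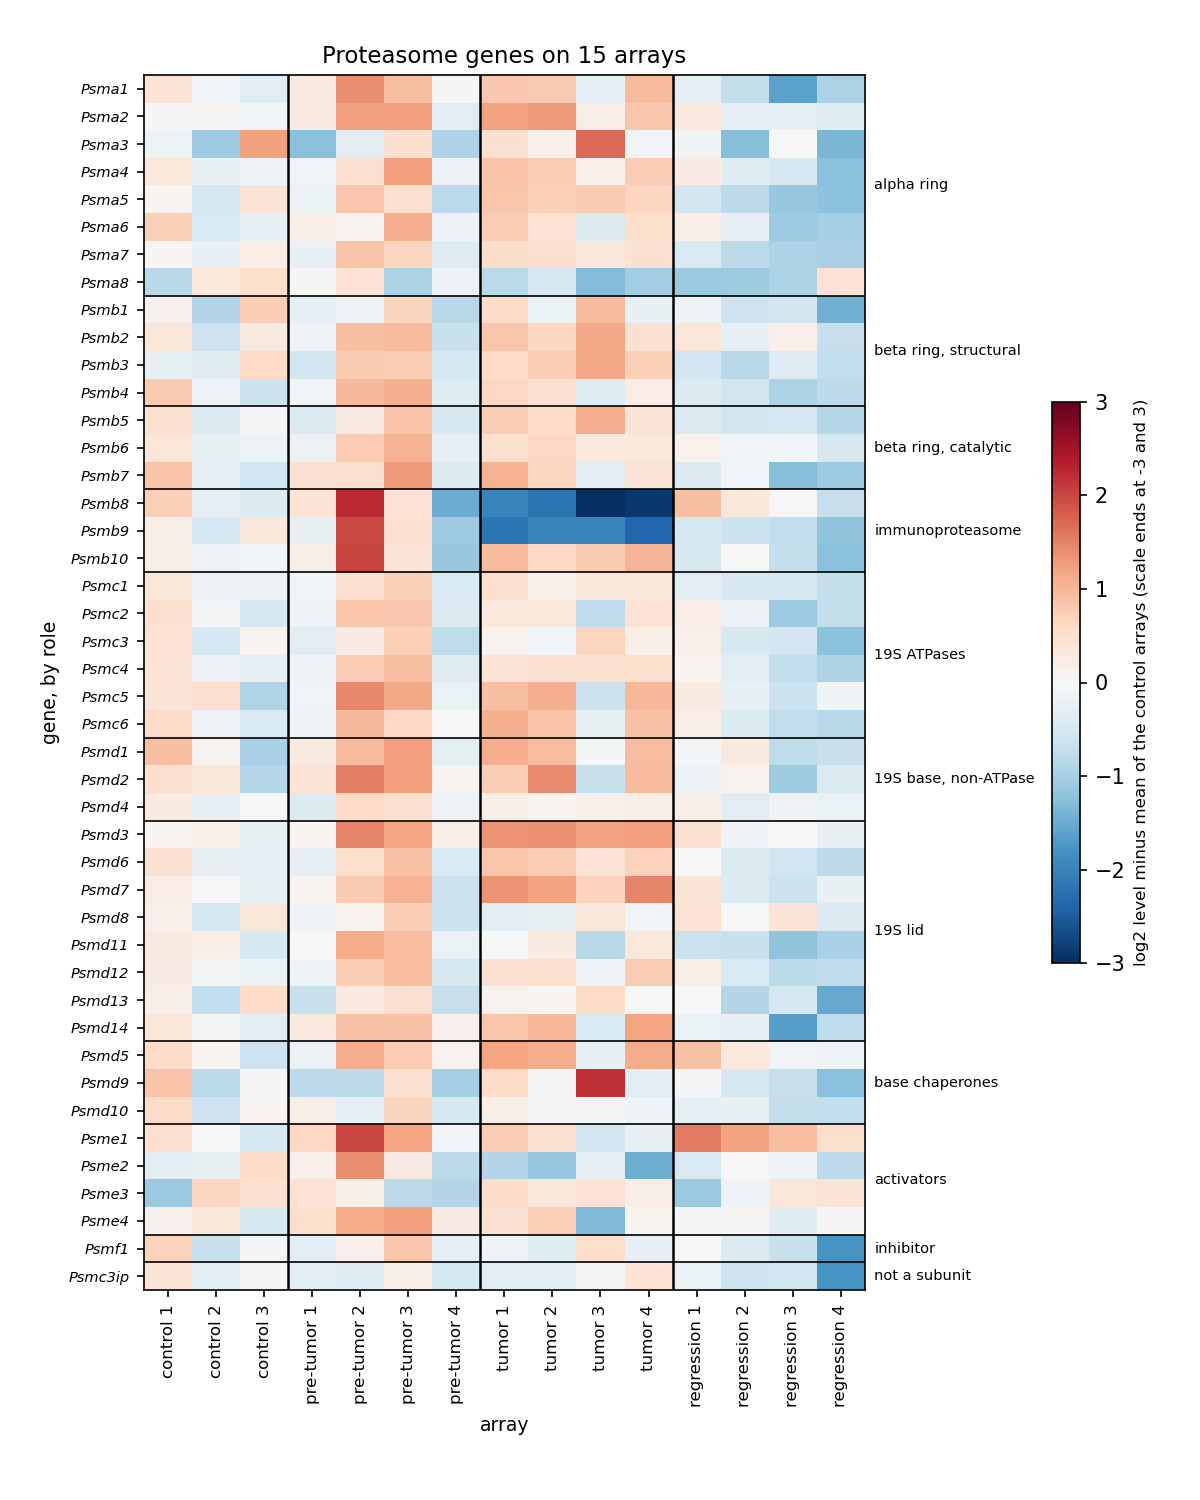
Heat map of the 44 genes (rows, by role) on the 15 arrays (columns, by group), coloured by the log2 level minus the mean of the control arrays, with the scale ending at -3 and 3. Psmb8 and Psmb9 are blue on all 4 tumor arrays while Psmb10 is not, and most other subunits are red on pre-tumor 2 and 3 and on tumor 1, 2 and 4 and blue on regression 3 and 4.

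Among the 44 members Psmb8 and Psmb9 differed most between tumor and control. Both fell in tumor, by 2.59 ± 0.67 (SE) and 2.12 ± 0.53 on the log2 scale against control, that is 6.02-fold and 4.34-fold lower (2 of 44 members fell, 4.55%, beside 7.01% of all genes), while Psmb10, the remaining immunoproteasome subunit, did not pass the test. Against pre-tumor the same 2 genes were called, 7.93-fold and 5.28-fold lower, and none of the other members was (2 of 44 fell, 4.55%, beside 9.08% of all genes). In regression Psmb8 rose again, 6.63-fold above tumor. The test was limma over 19233 genes with Benjamini-Hochberg adjustment, and a gene was called at an adjusted p under 0.05.

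Psmb8, the subunit that takes the place of Psmb5, read 3.80, 2.83 and 2.66 in the controls, 3.50, 5.33, 3.52 and 1.61 in pre-tumor livers, 1.13, 0.90, -0.21 and 0.21 in tumors and 4.01, 3.44, 3.08 and 2.41 in regression. Every tumor array was below every array of each other group, while regression overlapped control. The limma adjusted p was 0.0129 against control, 0.00234 against pre-tumor and 0.00592 for regression against tumor, which differed by 2.73 ± 0.62. Both probes of Psmb8 were called alike in all 3 of these comparisons. On single slides tumor minus control was -4.01 to -1.76 (below 0 on 3 of 3 slides), tumor minus pre-tumor was -5.55 to -0.71 (4 of 4), and regression minus tumor was 2.32 to 3.10 (4 of 4). The call against control was lost without control 1 or without tumor 3, with adjusted p up to 0.069 across the alternatives, and the calls against pre-tumor and for regression were kept under each of 27 alternatives.

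Psmb9, which takes the place of Psmb6, read 2.56, 1.84 and 2.69 in the controls, 2.13, 4.34, 2.83 and 1.28 in pre-tumor livers, 0.20, 0.41, 0.39 and -0.02 in tumors and 1.83, 1.71, 1.62 and 1.15 in regression. All tumor arrays were again below all others, and the 4 regression arrays lay between tumor and control without overlap with either. The gap to control was very narrow, with 1.834 on regression 1 and 1.838 on control 2. Adjusted p in limma was 0.0109 for tumor against control and 0.00219 against pre-tumor. The regression minus tumor difference was 1.33 ± 0.49 (limma adjusted p = 0.079) and did not pass, although every regression array was above every tumor array. It passed under 6 alternatives, among them quantile normalization and the authors' table (adjusted p = 0.0383 and 0.0432). The call against control was lost under median centring and without control 3 (adjusted p up to 0.061), and the call against pre-tumor was kept under all 27 alternatives.

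Psmb10, which takes the place of Psmb7, read 4.49, 4.20 and 4.23 in the controls, 4.49, 6.33, 4.71 and 3.17 in pre-tumor livers, 5.25, 4.93, 5.10 and 5.34 in tumors and 3.83, 4.29, 3.60 and 3.07 in regression. The tumor arrays were all above control, opposite to Psmb8 and Psmb9, and the regression arrays all below tumor. The differences were 0.84 ± 0.53 for tumor against control (limma adjusted p = 0.326) and -1.45 ± 0.49 for regression against tumor (adjusted p = 0.0557), neither past the threshold. The second passed under 7 alternatives, for example without the high-E1A arrays (adjusted p = 0.0381).

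**Figure D2:**
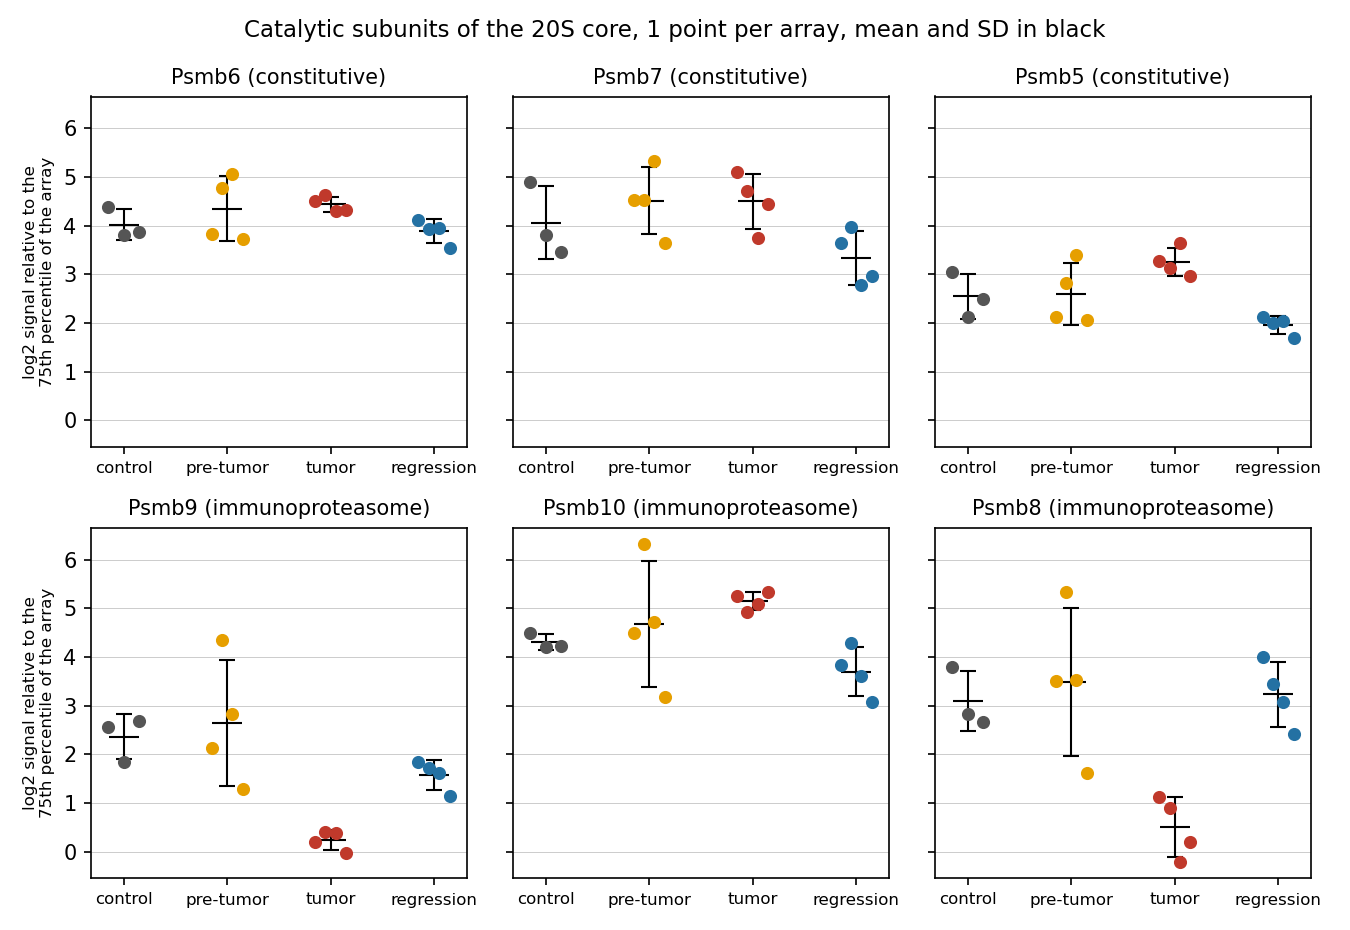
Levels of the 3 constitutive cutting subunits (top) and of the immunoproteasome subunits that replace them (bottom), as log2 signal relative to the 75th percentile of the array, with 1 point per array and the mean and SD in black. Tumor Psmb8 and Psmb9 lie between -0.21 and 1.13, below every other array of the same gene, whereas tumor Psmb10 lies between 4.93 and 5.34. Heights are not comparable between genes.

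The constitutive partners were not called in tumor. Psmb5, which holds the chymotrypsin-like site, read 3.04, 2.12 and 2.49 in the controls, 2.13, 2.82, 3.40 and 2.06 in pre-tumor livers, 3.28, 3.14, 3.64 and 2.97 in tumors and 2.12, 2.01, 2.05 and 1.69 in regression. Its tumor arrays overlapped control and its regression arrays were all below tumor, a fall of 1.29 ± 0.34 (limma adjusted p = 0.0155). Psmb6, the caspase-like subunit, read 4.38, 3.80 and 3.87 in the controls, 3.84, 4.77, 5.05 and 3.73 in pre-tumor livers, 4.51, 4.63, 4.31 and 4.32 in tumors and 4.12, 3.93, 3.96 and 3.54 in regression. Regression was below tumor on all arrays here too, but the difference of -0.56 ± 0.33 did not pass (limma adjusted p = 0.338). Psmb7, the trypsin-like subunit, read 4.91, 3.82 and 3.46 in the controls, 4.52, 4.54, 5.33 and 3.65 in pre-tumor livers, 5.10, 4.71, 3.75 and 4.45 in tumors and 3.64, 3.97, 2.78 and 2.97 in regression. Its regression minus tumor difference was -1.16 ± 0.44 (limma adjusted p = 0.091) and its groups overlapped.

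Because an immunoproteasome subunit and its constitutive partner compete for 1 place in the ring, the log2 difference of each pair was taken within each array and set relative to its mean in control. The Psmb8 minus Psmb5 difference stood at 0.83, 1.97, -0.43 and -0.99 in pre-tumor livers, -2.70, -2.78, -4.40 and -3.31 in tumors and 1.34, 0.89, 0.49 and 0.18 in regression. Tumor was below pre-tumor by 3.64 (12.5-fold) and regression above tumor by 4.02 (16.2-fold), with no overlap. Each had an exact two-sided permutation p of 0.0286, the smallest that 4 against 4 arrays can give, and 0.0429 after adjustment over the 6 pair tests. For Psmb9 minus Psmb6 the values were -0.05, 1.23, -0.57 and -0.79 in pre-tumor livers, -2.66, -2.56, -2.26 and -2.69 in tumors and -0.63, -0.56, -0.69 and -0.74 in regression. Tumor was lower than pre-tumor by 2.50 and regression higher than tumor by 1.89, again with exact permutation p of 0.0286 and 0.0429 after adjustment.

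For Psmb10 minus Psmb7 the values were -0.28, 1.54, -0.87 and -0.73 in pre-tumor livers, -0.09, -0.04, 1.10 and 0.64 in tumors and -0.05, 0.07, 0.58 and -0.14 in regression. These overlapped, and the differences were 0.49 for tumor against pre-tumor (exact permutation p = 0.486 before and after adjustment) and -0.29 for regression against tumor (p = 0.400, 0.480 after adjustment). Against control, where an exact permutation test of 4 against 3 arrays cannot go below p = 0.0571 and none was run, the tumor difference was -3.30 for Psmb8 minus Psmb5, -2.54 for Psmb9 minus Psmb6 and 0.40 for Psmb10 minus Psmb7. A difference between probes within an array shows unequal change of the 2 genes, not the amount of either.

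**Figure D3:**
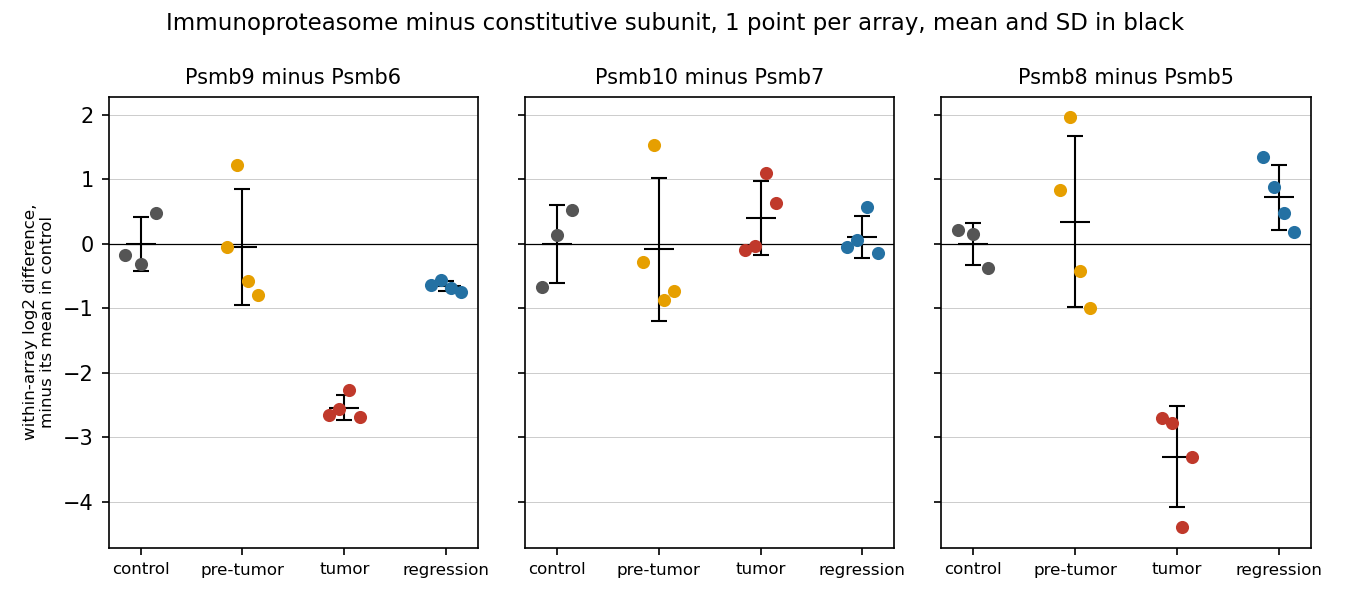
Within-array log2 difference of each immunoproteasome subunit and its constitutive partner, minus its mean over the control arrays, with 1 point per array and the mean and SD in black. The tumor arrays of the Psmb8 and Psmb9 pairs lie between -4.40 and -2.26 with no overlap with another group, while the Psmb10 pair overlaps in all groups.

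Genes that share the pathway of these subunits were read from a fixed list of MHC class I peptide supply and loading. Of 10 tested, 6 fell in tumor against control (7.01% of all genes did), 7 fell against pre-tumor (9.08%) and 5 rose in regression against tumor (8.36%). Erap1, which trims peptides, fell by 2.02 ± 0.35 against control, H2-K1 and H2-D1, class I heavy chains, by 2.85 ± 0.52 and 2.47 ± 0.43, and B2m, their light chain, by 2.87 ± 0.56 (limma adjusted p between 0.000692 and 0.00195). Tap1 and Tap2, the peptide transporter genes beside Psmb8 and Psmb9, were added after their values were seen, and fell by 1.79 ± 0.46 and 1.54 ± 0.46 (limma adjusted p = 0.0129 and 0.0307). In regression neither was called, with differences from tumor of 1.00 ± 0.43 and 0.34 ± 0.42 (limma adjusted p = 0.137 and 0.732).

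Of 10 interferon signalling genes, 2 fell in tumor against control (7.01% of all genes did), 6 fell against pre-tumor (9.08%) and 3 rose in regression against tumor (8.36%). In regression against control 2 of the 10 rose (5.04% of all genes). Irf9 and Stat2, which act downstream of type I interferon, fell by 1.81 ± 0.38 and 1.58 ± 0.45 against control (limma adjusted p = 0.00337 and 0.0239). Jak2, a kinase of interferon receptors, differed by -0.95 ± 0.40 and did not pass (limma adjusted p = 0.125). These lists were chosen with results of the same arrays known and hold no independent evidence for the immunoproteasome genes.

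Markers of leukocytes, cells that make immunoproteasome, moved in regression. Of 26 tested, 14 rose in regression against tumor (53.8%, beside 8.36% of all genes). In tumor against control 2 rose and 1 fell (7.69% and 3.85%). Both shares were below those of all genes (9.41% and 7.01%). The summed linear level of the 26 was 20.6 to 46.0 in control, 26.5 to 47.1 before tumors, 25.3 to 51.5 in tumors and 104 to 253 in regression. Between 18 and 26 of the 26 were well above background on an array. Although the sums in tumor and control overlapped, only 7 of the 26 had a positive difference in tumor against control, and 9 against pre-tumor. The pan-leukocyte gene Ptprc was well above background on all 15 arrays and rose in regression against tumor by 2.19 ± 0.42 (limma adjusted p = 0.00187). In tumor Cd68 and Laptm5 rose by 2.96 ± 0.48 and 2.56 ± 0.45 against control, and Clec4f, a Kupffer cell marker, fell by 2.44 ± 0.73. Hepatocyte markers moved too: 9 of 10 fell in tumor against control (7.01% of all genes) and 7 of 10 rose in regression against tumor (8.36%). Their summed level was 4200 to 4470 in control, 2420 to 7540 before tumors, 621 to 1810 in tumors and 2490 to 4580 in regression. Of 7 endothelial markers, 2 fell in tumor against control (7.01% of all genes did) and 3 fell against pre-tumor (9.08%). In regression against tumor 5 of the 7 rose (8.36% of all genes). The summed level of the 7 was 5.36 to 11.2 in control, 9.61 to 17.1 before tumors, 2.42 to 4.02 in tumors and 6.84 to 12.9 in regression. The tumor arrays were the lowest for these and for the hepatocyte markers. Of 8 stellate cell and fibroblast markers, 3 rose and 1 fell in tumor against control (9.41% and 7.01% of all genes). Against pre-tumor 2 of the 8 rose and 3 fell (10.1% and 9.08% of all genes). In regression against tumor 6 of the 8 rose (8.36% of all genes). The summed level of the 8 was 5.12 to 14.4 in control, 8.91 to 17.0 before tumors, 17.1 to 25.6 in tumors and 50.7 to 175 in regression. The higher sum in tumors did not hold for most of these markers. Only 3 of the 8 had a positive difference in tumor against control, and 3 of the 8 against pre-tumor. A summed level is weighted to the brightest probes, so it does not give the direction of most markers in a list. The part of these cell types in the Psmb8 and Psmb9 differences was not tested.

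The activators showed no called member. Psme1, PA28 alpha, read 4.49, 3.99 and 3.49 in the controls, 4.60, 5.99, 5.17 and 3.92 in pre-tumor livers, 4.74, 4.47, 3.41 and 3.76 in tumors and 5.56, 5.19, 4.91 and 4.52 in regression. Its regression arrays were all above control, by 1.06 ± 0.48 (limma adjusted p = 0.188), and overlapped tumor. Regression minus tumor was 0.95 ± 0.45 (limma adjusted p = 0.189), above 0 on 4 of 4 slides, and it passed under normexp, under quantile normalization and in the authors' table (adjusted p = 0.0416, 0.0474 and 0.0377). Psme2, PA28 beta, its partner in the activator ring, read 2.78, 2.91 and 3.70 in the controls, 3.28, 4.51, 3.37 and 2.34 in pre-tumor livers, 2.24, 2.00, 2.85 and 1.67 in tumors and 2.66, 3.11, 3.02 and 2.35 in regression. Tumor minus pre-tumor was -1.19 ± 0.43 (limma adjusted p = 0.0648), below 0 on 4 of 4 slides, and it passed under quantile normalization and in the authors' table, among others (adjusted p = 0.0299 and 0.00978). Psme3, the nuclear PA28 gamma, read 2.23, 3.99 and 3.80 in the controls, 3.78, 3.55, 2.55 and 2.45 in pre-tumor livers, 3.90, 3.67, 3.77 and 3.54 in tumors and 2.22, 3.24, 3.67 and 3.72 in regression. Psme4, PA200, a single-chain activator, read 2.92, 3.14 and 2.31 in the controls, 3.31, 3.89, 4.02 and 3.04 in pre-tumor livers, 3.26, 3.51, 1.47 and 2.89 in tumors and 2.76, 2.82, 2.40 and 2.82 in regression. No Psme3 or Psme4 difference was called. The Psme4 arrays of pre-tumor livers were all above those of regression, a pair of groups that was not tested. Psmf1, the inhibitor PI31, read 0.92, -0.44 and 0.20 in the controls, -0.11, 0.37, 1.07 and -0.01 in pre-tumor livers, 0.10, -0.12, 0.75 and -0.02 in tumors and 0.21, -0.19, -0.45 and -1.55 in regression on its brightest probe, with overlap throughout. On the other 2 Psmf1 probes tumor minus pre-tumor was -1.50 and -1.59 (limma adjusted p over probes 0.0102 and 0.0352), beside -0.15 on the brightest one, so the probes disagreed.

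The ordinary subunits showed their clearest difference between tumor and regression. Of all 44 members, 9 fell in regression against tumor (20.5%, beside 8.49% of all genes tested) and 1, Psmb8, rose (8.36% of all genes). The median difference over the members was -0.89 and over all genes -0.13, and 38 of 44 lay below 0. On 15 members every regression array was below every tumor array (34.1%, beside 13.1% of all genes) and on 2 above (4.55%, beside 10.8%). The 20S core contributed 5 falls of 15 and the 19S regulator with its chaperones 4 of 20, all 4 in the lid. Median differences were -1.09 for the core and -0.89 for the 19S genes. Within the 4 slides the median over all members was -0.51, -0.74, -0.97 and -1.12, beside -0.36, 0.22, -0.11 and -0.10 over all genes. On the first of these slides the members therefore lay only 0.15 below all genes.

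The number of falls depended on the scaling and on single arrays. Under median centring 1 member rose and 1, Psma5, fell, although the median over members stayed at -0.91. The authors' normalized table gave 15 falls and 3 rises. With slide as a block 6 members fell. Leaving out tumor 1 or regression 3 left 5 falls, and leaving out tumor 3, the array with the fewest spots above background, gave 14. The share of all genes called in each of these settings is not given here. The counts therefore do not show whether a change is particular to the members.

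**Figure D4:**
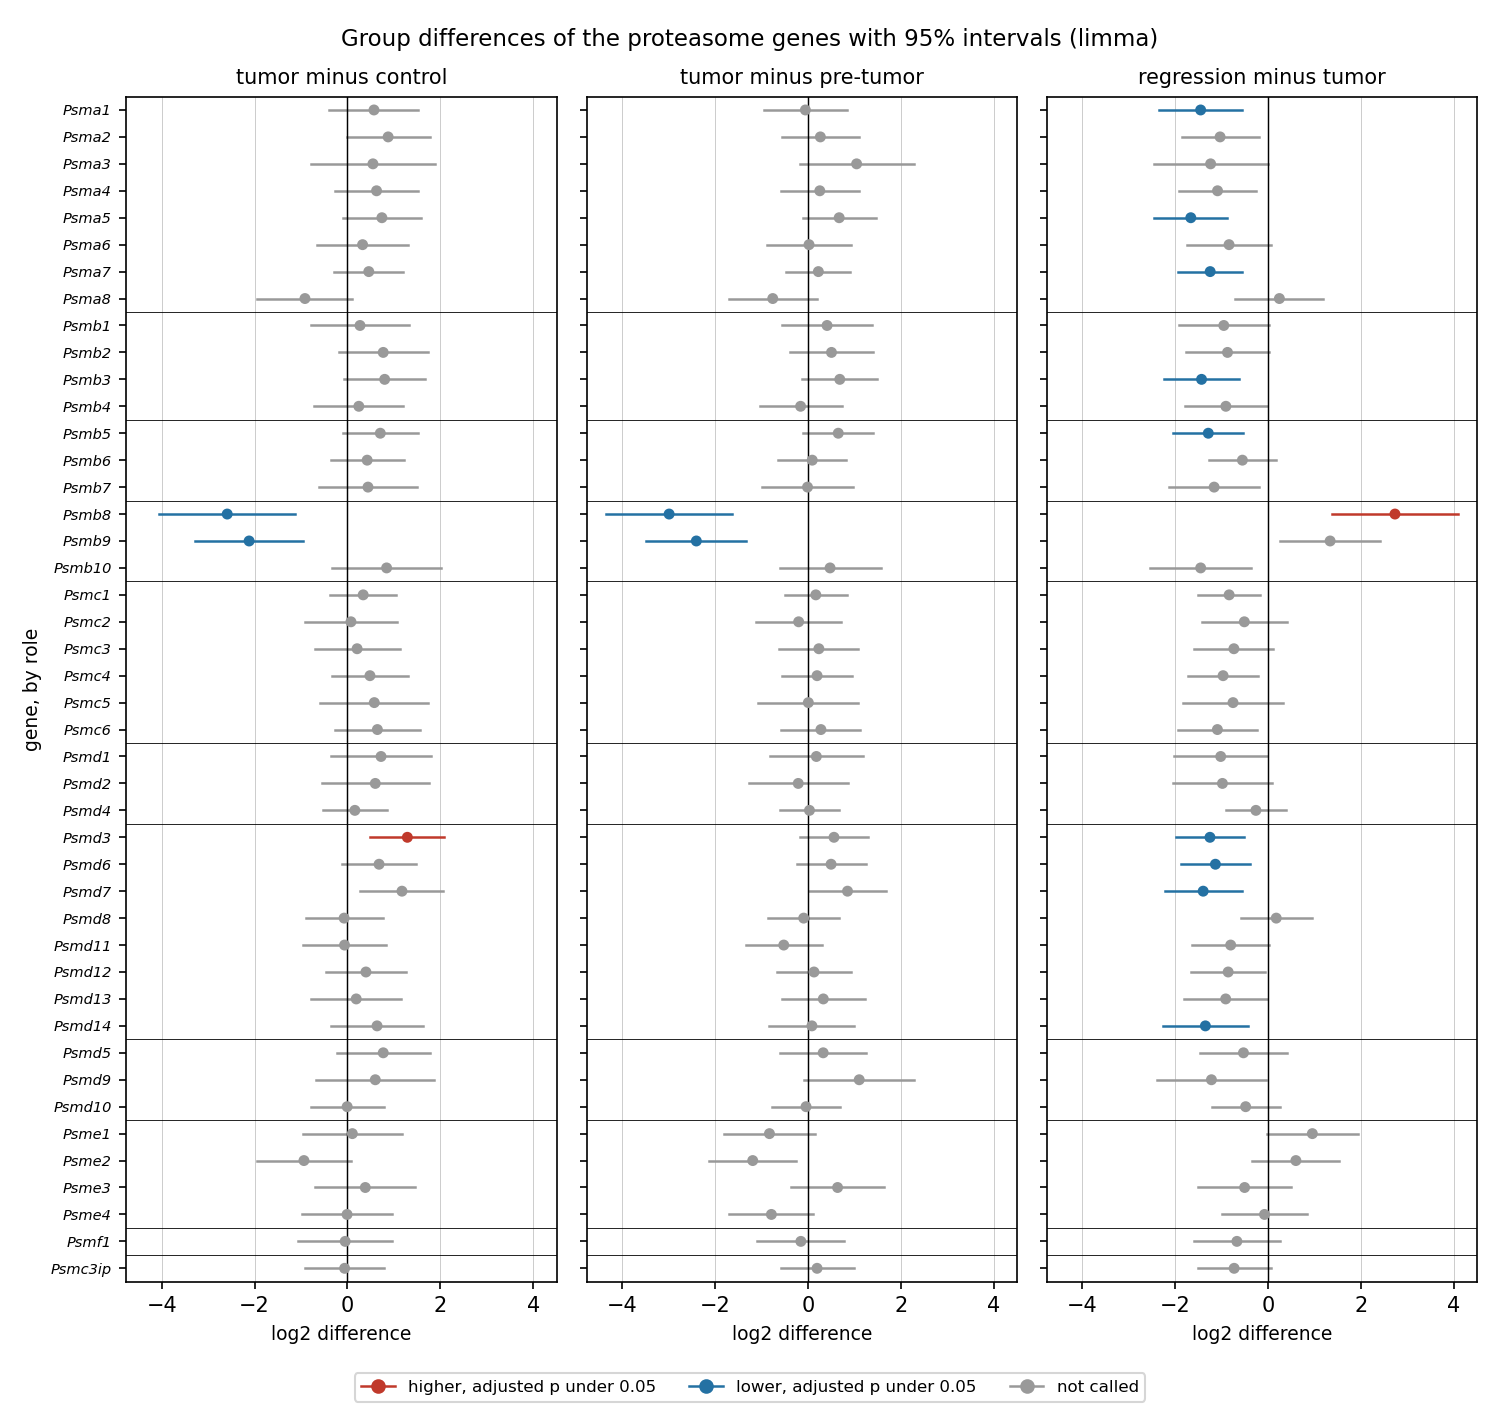
Log2 differences between groups for the 44 genes (rows, by role) from limma, with 95% intervals, for tumor minus control, tumor minus pre-tumor and regression minus tumor. Red and blue mark members called higher and lower at an adjusted p under 0.05. Most points of the third panel lie left of 0, where 9 members are called lower. Psmb8 and Psmb9 stand apart on the left of the first and second panels, and Psmb8 alone on the right of the third.

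In the alpha ring, Psma5 read 2.32, 1.72 and 2.65 in the controls, 2.02, 3.03, 2.71 and 1.42 in pre-tumor livers, 3.06, 2.95, 3.01 and 2.87 in tumors and 1.67, 1.45, 1.09 and 1.01 in regression. All tumor arrays lay above all control arrays, and regression was below both. The regression minus tumor fall was 1.67 ± 0.36, a 3.17-fold change (limma adjusted p = 0.00418), and it was called under each of 27 alternatives. Psma7, another alpha subunit, read 2.70, 2.41 and 2.89 in the controls, 2.45, 3.53, 3.31 and 2.32 in pre-tumor livers, 3.22, 3.14, 3.02 and 3.13 in tumors and 2.20, 1.88, 1.74 and 1.69 in regression. It had the same order of groups and fell by 1.25 ± 0.31 (limma adjusted p = 0.0113), a call lost under median centring alone. Psma1 read 2.86, 2.36 and 2.11 in the controls, 2.71, 3.83, 3.34 and 2.38 in pre-tumor livers, 3.26, 3.22, 2.18 and 3.40 in tumors and 2.17, 1.74, 0.83 and 1.50 in regression. It fell by 1.45 ± 0.40 (limma adjusted p = 0.02), with tumor 3 far below the other tumor arrays, and kept the call in 21 of 27 alternatives.

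Psma2 read 3.39, 3.38 and 3.27 in the controls, 3.62, 4.59, 4.57 and 3.03 in pre-tumor livers, 4.54, 4.63, 3.54 and 4.18 in tumors and 3.65, 3.07, 3.05 and 2.99 in regression. Tumor was above control on all arrays by 0.88 ± 0.41 (limma adjusted p = 0.169) and did not pass, nor did regression against tumor at -1.04 ± 0.38 (adjusted p = 0.0749). Psma8, the alpha subunit of the testis, was near background: it was well above background on 1 of 3 control, 3 of 4 pre-tumor, 0 of 4 tumor and 1 of 4 regression arrays, and read -3.48, -2.32 and -2.12 in the controls, -2.60, -2.20, -3.58 and -2.82 in pre-tumor livers, -3.44, -3.15, -3.95 and -3.68 in tumors and -3.75, -3.72, -3.60 and -2.20 in regression. Psma3, Psma4 and Psma6 differed between regression and tumor by -1.24, -1.09 and -0.84 without passing (limma adjusted p = 0.166, 0.0619 and 0.208). The other Psma4 probe was called lower in regression (-1.09, limma adjusted p over probes 0.0381). Psma2 and Psma4 passed as lower in regression under several alternatives, among them normexp (limma adjusted p = 0.0129 and 0.0192) and the authors' table (0.0124 and 0.018). Psma3 passed with the replicate block (0.0265).

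In the beta ring, Psmb3, a structural subunit, read 3.56, 3.43 and 4.37 in the controls, 3.24, 4.56, 4.54 and 3.26 in pre-tumor livers, 4.38, 4.53, 4.94 and 4.51 in tumors and 3.21, 2.95, 3.40 and 3.06 in regression. Regression was below tumor on every array, by 1.44 ± 0.37 (limma adjusted p = 0.0123), and both of its probes were called. Psmb2 read 4.43, 3.45 and 4.35 in the controls, 3.93, 4.98, 5.02 and 3.39 in pre-tumor livers, 4.91, 4.71, 5.22 and 4.53 in tumors and 4.43, 3.82, 4.22 and 3.39 in regression. Its tumor arrays were all above control and its regression arrays all below tumor, yet neither difference passed, at 0.77 ± 0.44 and -0.88 ± 0.40 (limma adjusted p = 0.268 and 0.178). Psmb1 and Psmb4 differed between regression and tumor by -0.96 and -0.91 (limma adjusted p = 0.179 and 0.155).

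The 19S lid held the remaining calls. Psmd3, a scaffold of the lid, read 3.68, 3.77 and 3.38 in the controls, 3.68, 5.08, 4.79 and 3.80 in pre-tumor livers, 4.96, 4.98, 4.82 and 4.83 in tumors and 4.07, 3.50, 3.63 and 3.38 in regression. It was the only member whose brightest probe rose in tumor against control, by 1.29 ± 0.36 or 2.44-fold (limma adjusted p = 0.022; 9.41% of all genes rose and 7.01% fell), and all tumor arrays were above all control arrays. In regression it fell by 1.25 ± 0.33 (limma adjusted p = 0.0163). The rise was lost without control 3, tumor 1 or tumor 2. Psmd7, whose product pairs with Psmd14, read 3.08, 2.86 and 2.64 in the controls, 2.93, 3.64, 3.91 and 2.22 in pre-tumor livers, 4.20, 4.08, 3.54 and 4.32 in tumors and 3.25, 2.45, 2.21 and 2.63 in regression. Its fall in regression was 1.40 ± 0.38 (limma adjusted p = 0.0168), with no overlap. The fall was kept in 23 of 27 alternatives, and not all of the 3 Psmd7 probes were called in it. Its tumor minus control difference of 1.17 ± 0.41 did not pass (limma adjusted p = 0.0621). That difference passed under several alternatives, among them normexp, quantile normalization and the authors' table (limma adjusted p = 0.01355, 0.0302 and 0.0144).

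Psmd6, another lid scaffold, read 1.77, 1.10 and 1.07 in the controls, 1.07, 1.85, 2.19 and 0.86 in pre-tumor livers, 2.15, 2.07, 1.75 and 2.01 in tumors and 1.30, 0.89, 0.72 and 0.53 in regression. It fell by 1.14 ± 0.34 in regression (limma adjusted p = 0.0291), with no overlap. Psmd14, the enzyme that removes ubiquitin from the substrate, read 1.47, 1.04 and 0.80 in the controls, 1.41, 1.99, 1.99 and 1.23 in pre-tumor livers, 1.93, 2.10, 0.64 and 2.29 in tumors and 0.91, 0.85, -0.55 and 0.34 in regression. It fell by 1.35 ± 0.42 (limma adjusted p = 0.035), and both of its probes were called, but tumor 3 was as low as the regression arrays and the groups overlapped. The calls for Psmd6 and Psmd14 were kept in 19 and 18 of 27 alternatives. Psmd8, also of the lid, differed by 0.17 ± 0.35 in regression against tumor, and Psmd11 and Psmd13 by -0.81 and -0.92 (limma adjusted p = 0.181 and 0.158). Of the 3 Psmd12 probes, 1 fell in regression by 1.91 (limma adjusted p over probes 0.00128), while the brightest one differed by -0.86 (0.137). The same Psmd12 probe rose in tumor by 1.26 against control and 1.38 against pre-tumor (limma adjusted p over probes 0.0282 and 0.00872). With the mean of its probes Psmd12 fell in regression by 1.34 (limma adjusted p = 0.00787), and it also passed in the authors' table (0.0441).

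The 19S base gave no called member with the settings used here. Its 6 ATPases, Psmc1 to Psmc6, which form the unfolding ring, differed between regression and tumor by -0.51 to -1.09. Psmc1, Psmc4 and Psmc6 passed as lower in regression under several alternatives, among them normexp (limma adjusted p = 0.00548, 0.0179 and 0.0449) and the authors' table (0.0075, 0.0166 and 0.0303). All Psmc1 regression arrays were below tumor, with a difference of -0.84 ± 0.30 (limma adjusted p = 0.0698). Psmc4 read 1.95, 1.37 and 1.30 in the controls, 1.40, 2.28, 2.44 and 1.18 in pre-tumor livers, 1.94, 2.03, 2.05 and 2.08 in tumors and 1.60, 1.21, 0.79 and 0.61 in regression. Regression was below tumor on every array, with a difference of -0.97 ± 0.34 (limma adjusted p = 0.0663). Psmc6 read 1.22, 0.54 and 0.20 in the controls, 0.53, 1.63, 1.27 and 0.64 in pre-tumor livers, 1.71, 1.51, 0.44 and 1.54 in tumors and 0.86, 0.21, -0.07 and -0.17 in regression. Its difference was -1.09 ± 0.39 (limma adjusted p = 0.067), with tumor 3 overlapping regression. Psmd1, a scaffold of the base, read 2.76, 1.93 and 0.88 in the controls, 2.13, 2.80, 3.08 and 1.57 in pre-tumor livers, 2.94, 2.78, 1.80 and 2.79 in tumors and 1.83, 2.13, 1.08 and 1.18 in regression. Psmd2, the other large scaffold, read 3.54, 3.40 and 2.18 in the controls, 3.44, 4.54, 4.28 and 3.12 in pre-tumor livers, 3.77, 4.45, 2.34 and 3.99 in tumors and 2.87, 3.15, 1.98 and 2.61 in regression. On both genes tumor 3 was far below the other tumor arrays and overlapped control and regression. Psmd4, a ubiquitin receptor, differed by -0.26 ± 0.29 in regression against tumor.

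The chaperones that assemble the base did not pass either. Psmd5 read 1.42, 0.91 and 0.23 in the controls, 0.65, 1.94, 1.62 and 0.96 in pre-tumor livers, 2.03, 1.95, 0.56 and 1.96 in tumors and 1.72, 1.17, 0.77 and 0.70 in regression. Psmd9 read 0.71, -0.94 and -0.20 in the controls, -0.92, -0.92, 0.37 and -1.13 in pre-tumor livers, 0.43, -0.17, 2.04 and -0.46 in tumors and -0.18, -0.65, -0.82 and -1.40 in regression. Tumor 3 was far below the other tumor arrays for Psmd5 and far above them for Psmd9, and neither gene passed in any comparison. Psmd10, also known as gankyrin, a gene studied in liver cancer, differed by -0.01 ± 0.36 between tumor and control. Psmc3ip, which is no subunit, read 0.53, -0.17 and 0.09 in the controls, -0.18, -0.23, 0.35 and -0.38 in pre-tumor livers, -0.16, -0.19, 0.10 and 0.59 in tumors and -0.05, -0.48, -0.43 and -1.63 in regression. Its groups overlapped throughout.

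Pre-tumor livers showed no called member. Of 44 members 0 were called higher and 0 lower in pre-tumor than control, and neither was any of all genes (0% and 0%, limma; 504 genes, or 2.62%, had an unadjusted p under 0.05 in limma). The members' median difference was 0.28, with 36 of 44 above 0. All 44 overlapped between these groups, beside 1.89% of all genes with every pre-tumor array above and 0.967% below every control array. The pre-tumor arrays were split. The members' median relative to control was 0.78 and 0.82 on pre-tumor 2 and 3, and -0.10 and -0.42 on pre-tumor 1 and 4. The last 2 arrays had a high raw E1A signal. Relative to the 75th percentile, however, E1A on pre-tumor 1 (-1.88) was near that on pre-tumor 3 (-1.97). Within slides the pre-tumor minus control median was -0.26, 0.45 and 1.04, beside 0.13, -0.07 and -0.05 over all genes. Without the 4 high-E1A arrays the pre-tumor minus control median was 1.02, from pre-tumor 2 and 3 and control 2 and 3 alone. Pre-tumor 2 was also the highest of all 15 arrays for Psmb8, Psmb9, Psmb10, Psme1 and Psme2.

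Tumor compared with control and pre-tumor gave few calls outside the immunoproteasome. Against control the members' median was 0.43 (all genes -0.18), with 34 of 44 above 0. On 8 members every tumor array was above every control array (18.2%, beside 13.7% of all genes) and on 2 below (4.55%, beside 11.9%). Psmd3 was the 1 rise, and Psmb8 and Psmb9 were the 2 falls. Against pre-tumor the median was 0.18, with 0 rises (10.1% of all genes). No member had every tumor array above every pre-tumor array (11.6% of all genes), and 2 had every one below (9.45%). Normexp correction with quantile normalization gave 5 rises and 2 falls against control and 4 rises and 3 falls against pre-tumor, and the authors' table gave 3 and 2, and 4 and 3. In both, Psma5, Psmb3, Psmb5 and Psmd7 were the 4 that rose against pre-tumor. For these 2 settings the share of all genes called is not given here. Without the high-E1A arrays the tumor minus pre-tumor median was -0.35, so its direction rests on those arrays. Only pre-tumor 2 and 3 were then left to compare with tumor 1, 2 and 3.

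No member was called between regression and control. Of 44 members 0 rose (5.04% of all genes) and 0 fell (3.3%), the median was -0.49 (all genes -0.25) and 39 lay below 0. On 7 members every regression array was below every control array (15.9%, beside 15.2% of all genes), Psmb9, Psma5 and Psma7 among them, and on 1, Psme1, above (2.27%, beside 10.2%). The comparisons share arrays, with control in 3 of them and tumor in 3, so they are not independent of each other.

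The chaperones that build the 20S core, Psmg1 to Psmg4, stand in the table under older symbols, such as Dscr2 for Psmg1 and Tnfsf5ip1 for Psmg2, and so are not among the 44. All 4 rose in tumor against control, by 1.38 to 2.00 (9.41% of all genes rose), and 4 rose against pre-tumor, by 0.88 to 2.04 (10.1%). All 4 fell in regression against tumor (8.49% of all genes fell), with differences of -2.39 to -1.59. Psmg1 read 0.40, -0.33 and -0.08 in the controls, -0.03, 0.29, 0.84 and -0.10 in pre-tumor livers, 1.81, 1.37, 1.71 and 1.35 in tumors and -0.65, -0.63, -0.94 and -1.12 in regression. Psmg2 read 1.02, 0.42 and 0.77 in the controls, 0.76, 1.28, 1.96 and 0.81 in pre-tumor livers, 2.72, 2.65, 2.90 and 2.66 in tumors and 1.09, 0.97, 0.96 and 0.37 in regression. The tumor arrays of both lay above all others, with limma adjusted p of 0.00289 and 0.000634 against control. Without the high-E1A arrays neither passed against pre-tumor (adjusted p = 0.0667 and 0.0636). None of the 4 was called in regression against control (5.04% of all genes rose and 3.3% fell).

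Among 16 other proteasome partners tested, 3 rose in tumor against control (18.8%, beside 9.41% of all genes), and 5 fell and 1 rose in regression against tumor (31.2% and 6.25%, beside 8.49% and 8.36%). Uchl5, a deubiquitinase of the 19S base, rose by 2.14 ± 0.31 in tumor and fell by 2.02 ± 0.29 in regression (limma adjusted p = 0.000172 and 0.000251). Ubqln4 and Txnl1, a ubiquitin shuttle and a thioredoxin bound to the 19S, rose by 1.76 ± 0.36 and 1.11 ± 0.33 (limma adjusted p = 0.00283 and 0.0305). Akirin2, which brings proteasomes into the nucleus, differed by 0.97 ± 0.34 (limma adjusted p = 0.0665). Of 11 genes that regulate proteasome genes or process their regulators, 1 rose and 1 fell in tumor against control (9.09% each, beside 9.41% and 7.01% of all genes, so near the background). Nfyb, a subunit of the factor that binds CCAAT, rose by 1.25 ± 0.36, and Syvn1, a ubiquitin ligase of the endoplasmic reticulum, fell by 1.57 ± 0.44 (limma adjusted p = 0.0241 and 0.0215). Nfe2l1, the factor that raises proteasome genes when the proteasome is inhibited, differed by -0.38 ± 0.41 (limma adjusted p = 0.591). Of 6 genes of ubiquitin and its activation, 1 rose in tumor against control (16.7%, beside 9.41% of all genes). It was Rps27a, which rose by 1.33 ± 0.37 (limma adjusted p = 0.0229).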

How the data were processed

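RNA was measured on 15 one-colour Agilent arrays (4 groups), after amplification with a whole transcriptome kit per the labels' protocols. The deposited scanner files hold spot intensity from Agilent Feature Extraction 10.5.1.1, per the file headers, already background-subtracted in the processed signal. The authors also deposited a table of normalized log2 values, whose method is not given in the sources used here and which served as an alternative.

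Outlier spots (0.452%) were left out, the spots of a probe averaged, and the log2 processed signal set relative to the 75th percentile of the gene probes on each array. Of 41174 probes 34908 had a symbol, and 29926 of these were well above background on at least 3 arrays. The brightest of these probes stood for each of 19233 genes, and all 44 members passed. All 4 groups entered 1 limma fit (limma 3.58.1, R 4.3.3, 11 residual degrees of freedom) with Benjamini-Hochberg adjustment over all genes at 0.05. Subunit pairs were compared by exact permutation of arrays. The procedure was tested on simulated data.

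Members and lists were chosen with earlier results of these data known. Array values are given for the cutting subunits, the activators, the 2 members of each class with the lowest adjusted p in tumor against control, members called lower in tumor or called in regression, and Psmc3ip. Each other list has up to 4 genes in order of that p, of which 1 is not reported here. Tap1, Tap2, Ptprc, Nfe2l1 and members given by differences alone were named after their values were seen. Alternatives were normexp (offset 50) with quantile normalization, run on the median spot signal because the mean signal is not among the columns used here, quantile normalization, median centring, the authors' table, 2 other filters, a block for slide or for replicate number, fits of each pair of groups alone, trended robust eBayes, averaging a gene's probes, and leaving out single arrays or the 4 with the highest E1A signal. The number of arrays limits the precision.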

Additional observations from a re-analysis of the deposited data

Results flagged for a closer look

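In the 93 groups of 4 arrays tested for the genes shown by array, 8 had 1 array far from the other 3, with a gap past Dixon's 95% critical value. Chance marks about 1 in 20 such groups. Of the 8, 4 were tumor 3, the array with the lowest share of spots well above background (46.4%), and its level was low in each: Psma1 at 2.18 (nearest other tumor array 3.22), Psmc6 at 0.44 (1.51), Psmd1 at 1.80 (2.78) and Psmd5 at 0.56 (1.95). The part of that array's brightness in these values was not tested. In regression, Psma2 stood at 3.65 on array 1 (nearest 3.07), Psme4 at 2.40 on array 3 (nearest 2.76), and Psma8 at -2.20 on array 4 (nearest -3.60), the last on a probe near background. In pre-tumor, Psmd9 stood at 0.37 on array 3 (nearest -0.92).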

How the results depend on the processing

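No call of a member or pair changed direction. Of the alternatives run for the named genes, 6073 values kept their side of the threshold, 91 passed newly and 41 no longer passed. The pair differences of Psmb8 minus Psmb5 and Psmb9 minus Psmb6 passed under each scaling and probe alternative that kept all arrays, with tumor minus pre-tumor between -4.09 and -2.75 and between -2.82 and -1.75 over all alternatives. With fewer arrays their p was not computed. Median centring cannot change a within-array difference, so that alternative repeats the main result. Where all arrays were kept, the permutation p stays at its smallest value whenever the groups do not overlap. Members higher in tumor than control numbered 1, and 5 under normexp, 3 in the authors' table, and 2 each under quantile normalization, the stricter filter and the trended variance, with 0 to 2 when 1 array was left out (0 without control 3, tumor 1 or tumor 2). Members lower in tumor than control numbered 2, and 1 under median centring, with 1 to 2 when 1 array was left out (1 without control 1, control 3 or tumor 3). Members higher in tumor than pre-tumor numbered 0, and 4 under normexp and in the authors' table. Members higher in regression than tumor numbered 1, and 2 under normexp, 3 under quantile normalization, 3 in the authors' table, 2 with the 2 groups alone, 2 without the high-E1A arrays, and 1 to 2 when 1 array was left out (2 without pre-tumor 2 or pre-tumor 4). Members lower in regression than tumor numbered 9, and 14 under normexp, 15 in the authors' table, 14 under the stricter filter and 1 under median centring, with 5 to 14 when 1 array was left out. Members lower in regression than control numbered 0, and 2 under normexp and in the authors' table. The cause of these differences was not tested. Since the share of all genes called under each alternative is not given here, these counts do not show whether a change is particular to the members. Median centring moved the median of all genes from -0.18 to 0.14 for tumor against control, from -0.12 to 0.14 against pre-tumor and from -0.25 to 0.05 for regression against control.

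The replicate numbers do not pair the arrays by the labels, and same-numbered arrays deviated together weakly (r between -0.44 and 0.61 over 21 pairs, median 0.12, and 8 of 15 arrays closest to their own number). With the replicate block 12 members fell in regression against tumor, and 1 rose in regression against control, Psme1 (1.26, limma adjusted p = 0.045). The share of all genes called with this block is not given here either. Among the members Psma8 alone was not well above background on every array, so its differences are limited by signal.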
